A study of Homo sapiens with 6 samples.

Results

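Genes for synaptic vesicles and synaptic scaffolds were examined in RNA sequencing of WM164 cells, an established human melanoma line. The members were taken by symbol, as protein-coding genes of the synaptotagmin (SYT, SYTL), SV2, LIN7, neurexin (NRXN), neuroligin (NLGN), SHANK, DLG, DLGAP, synapsin (SYN), SNAP, VAMP, syntaxin (STX), STXBP, IL1RAPL, LRRTM, LRFN, RIMS, complexin (CPLX), SLITRK and SYP families. This gave 112 of the 58870 genes in the count table, under 111 symbols, because VAMP7 has a second entry. Cells of both groups were grown in the same serum-containing medium, and 3 libraries were made from each group. Control cells overexpressed GFP. The other cells were given T-MGM, the tethered dimer, in which the melanocyte isoform of the transcription factor MITF is followed by a flexible linker and its partner MAFG. According to the study's methods the vectors were lentiviral, with an EF1α promoter and blasticidin resistance, and transduced cells were selected with the drug. The labels do not say whether the 3 numbered libraries of a group came from separate cultures, so p-values measure the spread between these libraries, which may be technical.

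Total counts were 35057239 to 38738065 for GFP and 44577774 to 59250663 for the libraries labelled T-MGM, and depth was scaled out with DESeq2 size factors to give normalized counts. The construct's own genes did not check the labels. MAFG had 2458 ± 70.3 normalized counts in the controls and 2358 ± 34.9 in T-MGM (SD, n = 3 each), and MITF had 19161 ± 46.9 and 20269 ± 165, so directions rest on the labels, and "T-MGM" means the libraries labelled so.

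At a chemical synapse, vesicles loaded with transmitter dock at the active zone, and SNARE proteins on vesicle and plasma membrane zip together to fuse them when synaptotagmins sense calcium. RIM proteins, STXBP proteins and complexins prepare and restrain that step. Neurexins, neuroligins and other adhesion molecules join the facing membranes, and PDZ scaffolds such as DLG4 (PSD-95), SHANK and LIN7 hold receptors and adhesion molecules beneath them. Many of these families also serve other cells: syntaxins and VAMPs run general membrane traffic, LIN7 and DLG proteins organise cell junctions, and synaptotagmin-like proteins bind RAB27 on secretory organelles, including melanosomes in pigment cells.

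Promoter sequence is shown for the members with the largest changes for which a RefSeq window at the outermost RefSeq start site was at hand: LIN7A and IL1RAPL1, which fell, and SYT14, which rose. Each window runs from 250 bases before to 50 bases after the start site, 5′ to 3′ on the gene's strand, in build GRCh38.p14. Capitals mark a match to CACGTG or CATGTG, the E-box forms bound by MITF and its relatives, or to TGACTCA, the AP-1 form that overlaps the core of the small MAF site. TGAGTCA is the reverse complement of TGACTCA, and both strands were searched. The LIN7A window is chr12:80937885-80938184 on the minus strand, that of IL1RAPL1 is chrX:28587196-28587495 on the plus strand, and that of SYT14 is chr1:209937967-209938266 on the plus strand.
LIN7A: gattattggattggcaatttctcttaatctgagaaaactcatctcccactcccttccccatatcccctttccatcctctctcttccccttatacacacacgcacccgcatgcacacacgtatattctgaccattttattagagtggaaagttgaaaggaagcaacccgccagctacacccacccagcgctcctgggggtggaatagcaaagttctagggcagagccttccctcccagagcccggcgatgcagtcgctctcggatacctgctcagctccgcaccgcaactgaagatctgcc
IL1RAPL1: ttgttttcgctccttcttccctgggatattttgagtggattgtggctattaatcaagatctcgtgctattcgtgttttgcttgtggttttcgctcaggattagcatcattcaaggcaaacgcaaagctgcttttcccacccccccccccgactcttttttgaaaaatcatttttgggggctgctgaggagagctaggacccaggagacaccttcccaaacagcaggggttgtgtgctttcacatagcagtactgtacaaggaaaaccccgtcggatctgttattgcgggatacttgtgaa
SYT14: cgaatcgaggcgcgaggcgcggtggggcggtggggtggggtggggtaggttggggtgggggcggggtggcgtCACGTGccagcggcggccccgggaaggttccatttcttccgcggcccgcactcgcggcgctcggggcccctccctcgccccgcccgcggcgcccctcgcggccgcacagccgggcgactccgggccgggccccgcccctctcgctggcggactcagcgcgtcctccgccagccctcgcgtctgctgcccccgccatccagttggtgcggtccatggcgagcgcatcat
The letters of none of these motifs were in the LIN7A and IL1RAPL1 windows, whereas the SYT14 window held 1 CACGTG, starting 178 bases before the start site. The annotation GENCODE 44 has a SYT14 start further upstream as well. Base composition differed, with 78.0% G and C in the SYT14 window against 52.7% for LIN7A and 47.3% for IL1RAPL1. Of all 35116 RefSeq windows, 7.26% held CACGTG, 11.1% CATGTG and 4.95% the AP-1 form. The 152 windows of the 87 members that could be matched held them in 7.24%, 9.21% and 5.26% of cases, close to those shares. A match is a description of the letters and not a binding site.

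DESeq2 gave an adjusted p to 81 of the 112 members; the other 31 did not pass its filter on low counts. The untested members included 18 with at most 3 counts in any library, such as SYT1, the calcium sensor of fast transmitter release, and the complexins CPLX2, CPLX3 and CPLX4. A gene was called when its adjusted p was at or under 0.05 and its fold change was over 2, T-MGM over GFP. The 13 called members were 16.0% of those tested, where 4.63% of all 19135 tested genes were called. Of these 13, 8 were higher (background 3.26%) and 5 were lower (background 1.36%). On the adjusted p alone 34 members passed, 16 higher and 18 lower, or 42.0% against 38.4% of all tested genes; the background was 19.2% in each direction. In the filtered TPM values, tested with limma, 10 were higher and 21 lower. In those fits the median of tested genes with a mean of at least 50 normalized counts stood at -0.13 or -0.15. The shares of all genes in each direction were not computed. For 47 of the 81 tested members the range of T-MGM lay clear of that of GFP, or 58.0% against 46.8% of all tested genes. The median log2 fold change of the tested members was -0.07, and that of all tested genes was -0.0027. Members were thus changed over 2-fold at a higher share than tested genes in general, while the share passing the adjusted p was near the background. Because the families were chosen with earlier results known, no test of the list was made.

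**Figure D1:**
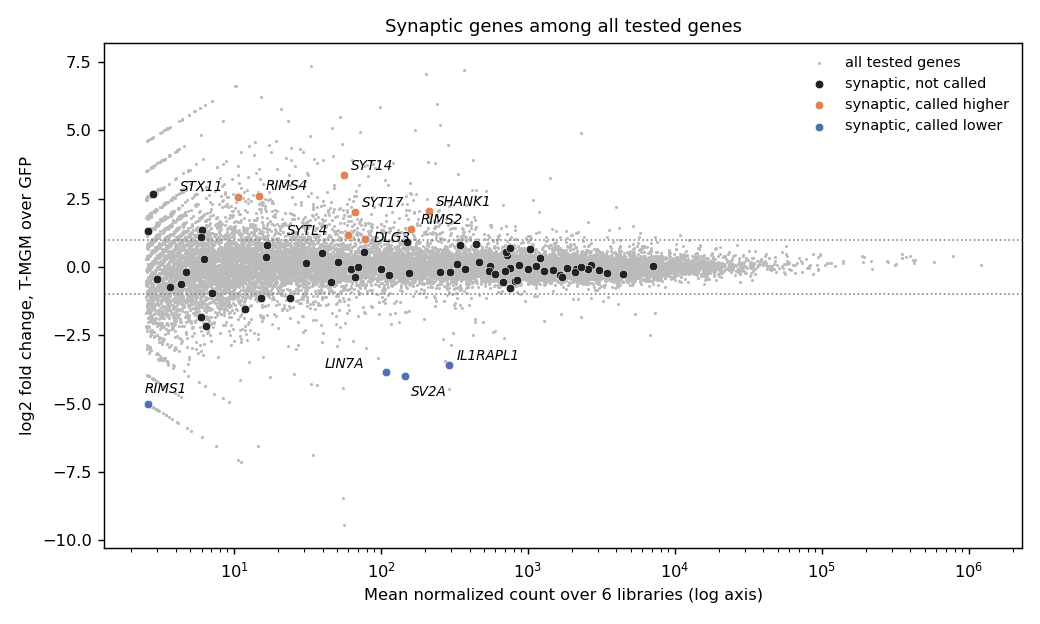
Log2 fold change (T-MGM over GFP, vertical axis) against the mean normalized count over 6 libraries (horizontal log axis) for all tested genes (grey) and the tested synaptic members (black, or orange and blue where called higher and lower); dotted lines mark a 2-fold change. SV2A, LIN7A and IL1RAPL1 sit at -3.60 and below with means over 100 counts, whereas RIMS1 lies at the low-count edge.

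The members ranged widely in level. Compared per length, in TPM (transcripts scaled to gene length and to a fixed library total), 19 members averaged 10 or more over the 6 libraries, 26 averaged 1 to 10, 22 averaged 0.1 to 1, and 45 lay below 0.1. Among the most abundant were DLGAP4, VAMP3, DLGAP5 and STX16. Among the 19 members at 10 TPM or more, the largest change was 0.56 on the log2 scale (STXBP2), under the fold threshold. The called members were found lower down, 3 of them at 1 to 10 TPM, 7 at 0.1 to 1 TPM and 3 below 0.1 TPM. The changes over 2-fold thus concerned members at modest or low levels, and the abundant machinery moved by less. The shares of all tested genes called at these levels were not computed, so the pattern is not shown to be particular to the members.

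Among vesicle membrane proteins, SV2A stood out. SV2A is a transporter-like glycoprotein of synaptic and endocrine vesicles and the binding site of the drug levetiracetam. It had 296, 260 and 273 normalized counts with GFP and 12.8, 14.6 and 23.6 with T-MGM. All T-MGM libraries thus lay more than 10-fold under all GFP libraries. The gene (ENSG00000159164.10; chromosome 1, 149903318 to 149917844, GRCh38, minus strand) fell by 3.99 on the log2 scale (SE 0.24, adjusted p of 2.66e-61 by DESeq2), a 15.9-fold lower level, and overlaps no annotated gene. In TPM it went from 1.29 ± 0.08 to 0.07 ± 0.02 (SD, n = 3 each). Its paralogues gave no counterpart: SV2B had at most 3 counts in any library, and SV2C had a mean of under 0.1 TPM in each group.

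Synapsins bind vesicles to one another and to actin. SYN3 rose by 0.92 (SE 0.18, adjusted p of 9.5e-07 by DESeq2), from 97.1, 101 and 113 to 186, 169 and 232 normalized counts, without reaching 2-fold. SYN1 was at 46.8, 63.9 and 75.4 in controls and at 119, 70.2 and 85.6 in T-MGM; the groups overlapped and the difference did not pass (log2 change 0.56, SE 0.26, adjusted p of 0.0743 by DESeq2). TIMP3 lies on the opposite strand over SYN3 and had means of 64100 (GFP) and 70400 (T-MGM) normalized counts, and TIMP1 and ARAF lie over SYN1, so without strand a small share of their reads could alter the synapsin counts. SYP, the vesicle protein synaptophysin, had 43.2, 20.6 and 35.4 normalized counts in GFP against 25.5, 0.98 and 18.4 in T-MGM. Its groups overlapped and the difference did not pass (log2 change -1.14, 95% limits -3.13 and 0.86).

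Synaptotagmins and synaptotagmin-like proteins share paired C2 domains, which sense calcium in only some of them. Of 13 tested, 4 passed the adjusted p (30.8%, against 38.4% of all tested genes), all of them higher. Of these 4, 3 were called (23.1% of those tested, against 4.63% of all tested genes). SYT14 is an atypical synaptotagmin that lacks calcium binding. It had 8.39, 10.8 and 10.3 normalized counts in GFP against 109, 101 and 93.7 in T-MGM, so every T-MGM library exceeded every GFP library more than 8-fold. The gene (ENSG00000143469.19; chromosome 1, 209900923 to 210171389, plus strand) rose by 3.36 on the log2 scale (SE 0.36, adjusted p of 5.07e-19 by DESeq2), to a 10.3-fold higher level. Even so it reached only 0.28 ± 0.08 TPM (SD, n = 3).

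SYT17, another synaptotagmin, had 26.4, 23.8 and 29.7 normalized counts in GFP against 74.8, 126 and 118 in T-MGM. T-MGM replicate 1 was the lowest of its group but still above all controls, and the log2 fold change was 2.0 (SE 0.29, adjusted p of 7.56e-11 by DESeq2). The synaptotagmin-like proteins SYTL2 and SYTL4 are RAB27 effectors in vesicle and melanosome transport. SYTL2, the most abundant member of this group, went from 824, 824 and 749 to 1216, 1302 and 1235 normalized counts and rose by 0.65 (SE 0.06, adjusted p of 6.35e-24 by DESeq2). SYTL4 went from 33.6, 44.4 and 33.1 to 68.4, 81.0 and 98.9, a log2 fold change of 1.16 (SE 0.28, adjusted p of 0.000126 by DESeq2). The deposited TPM values of SYTL4 did not follow its counts: they were 1.83, 0.39 and 2.51 in GFP against 0.37, 0.56 and 3.08 in T-MGM, and overlapped. SRPX2, on the opposite strand, had 474 and 603 normalized counts over the same place. The remaining 9 tested synaptotagmins did not pass, among them SYT7 and SYT11 at -0.07 and -0.36. The largest difference among them was in SYT6, which had 3.60, 11.9 and 16.0 normalized counts with GFP and 2.74, 2.93 and 1.48 with T-MGM. All T-MGM libraries lay below the controls, and the log2 fold change of -2.17 (SE 0.93, adjusted p of 0.0513 by DESeq2) passed with total-count scaling and without GFP replicate 1.

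**Figure D2:**
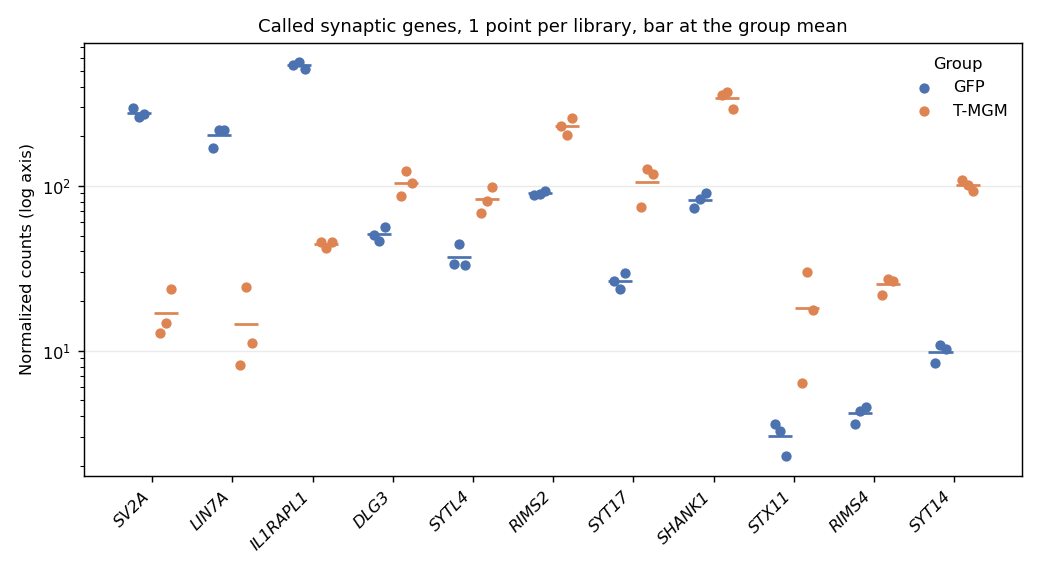
Normalized counts (log axis) in each library for the 11 called members with a mean of at least 10, ordered by fold change from SV2A at the left to SYT14 at the right; points are libraries (3 GFP in blue, 3 T-MGM in orange) and bars are group means. The groups do not overlap for any of the 11, which were picked by their calls on these same counts. Of all tested genes, 46.8% do not overlap. STX11 has the widest spread within T-MGM (6.39 to 30.2).

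Of 22 tested SNARE genes, 8 passed the adjusted p (36.4%, against 38.4% of all tested genes), 3 higher and 5 lower. Of the 22, 1 was called (4.5%, background 4.63%). VAMP3 and STX16, which serve endosomal and Golgi traffic, were the most abundant with VAMP7, a lysosomal and secretory SNARE. VAMP3 fell by 0.24 (SE 0.03, adjusted p of 3.47e-12 by DESeq2), from 3813, 3716 and 3640 to 3054, 3213 and 3176 normalized counts. STX16 fell by 0.24 as well (SE 0.03, adjusted p of 1.33e-15 by DESeq2), and VAMP7 had a log2 fold change of -0.05 with 95% limits of -0.14 and 0.03. Neighbouring genes within 5 Mb of VAMP3 and STX16 had medians of -0.28 and -0.27, similar to the genes themselves. STX1A, the syntaxin of regulated exocytosis at the plasma membrane, moved the other way. It had 239, 265 and 246 normalized counts in GFP against 463, 412 and 432 in T-MGM, and rose by 0.80 (SE 0.11, adjusted p of 1.49e-12 by DESeq2). Its synaptic partner SNAP25 lay at 95.3 to 115 in GFP against 88.5 to 108 in T-MGM, with limits of -0.46 and 0.31 on the log2 change.

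The called SNARE was STX11, best known from cytotoxic lymphocytes, whose granule release fails when it is lost. It had 3, 3 and 2 raw counts in controls, then 7, 31 and 24 in T-MGM, so no control library exceeded the 3-count floor. The ratio of summed counts per size factor was 5.87, with an exact 95% interval of 2.80 to 14.2 that covers counting error only (adjusted p of 0.00488 by DESeq2). T-MGM replicate 1 lay well below the other two of its group, and without T-MGM replicate 2 the gene did not pass (log2 fold change 2.0).

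Fusion regulators had 8 of 12 tested members past the adjusted p (66.7%, against 38.4% of all tested genes). STXBP proteins bind syntaxins and guide SNARE assembly. STXBP3 fell by 0.54 (SE 0.08, adjusted p of 3.43e-11 by DESeq2) and STXBP5 (tomosyn), a SNARE inhibitor, by 0.29 (SE 0.05, adjusted p of 5.65e-09 by DESeq2). STXBP2 (Munc18-2), the partner of STX11 in granule release, rose by 0.56 (SE 0.07, adjusted p of 2.91e-13 by DESeq2), with 558 to 578 normalized counts in GFP against 799 to 872 in T-MGM. STXBP2 and STXBP3, which are close relatives, thus moved in opposite directions.

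RIM proteins tether vesicles and calcium channels at the active zone. RIMS2 had 87.5, 88.8 and 93.7 normalized counts in GFP against 231, 205 and 260 in T-MGM, and rose by 1.37 on the log2 scale (SE 0.17, adjusted p of 3.86e-15 by DESeq2). RIMS4, a short family member, went from 3.60, 4.33 and 4.57 to 21.9, 27.3 and 26.6, a log2 fold change of 2.60 (SE 0.63, adjusted p of 0.000166 by DESeq2). KCNK15 lies over RIMS4 on the opposite strand and was also higher, with 1.8 and 11.7 normalized counts. RIMS3 lay at 61.2 to 82.3 and 59.0 to 86.8, with overlapping groups. RIMS1 had 2, 10 and 2 counts in GFP against 0 in every T-MGM library (adjusted p of 0.0172 by DESeq2). Its summed counts per size factor were 2.05-fold lower when each T-MGM library was set at the floor of 3 counts. GFP replicates 1 and 3 lay under that floor too, so this value rests on GFP replicate 2. RIMS1 was named after its values were seen, and edgeR's filter left it untested. Summed TPM of the family was 0.800 ± 0.035 and 1.51 ± 0.10 (SD, n = 3 each).

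Among scaffolds, 7 of 15 tested members passed the adjusted p (46.7%, against 38.4% of all tested genes). Of the 15, LIN7A, SHANK1 and DLG3 were called, where 4.63% of all tested genes were called. LIN7A is 1 of 3 small PDZ proteins that sort receptors and channels with CASK. It had 170, 219 and 218 normalized counts in GFP against 8.21, 24.4 and 11.1 in T-MGM, and all T-MGM libraries were far under all controls. The gene (ENSG00000111052.7; chromosome 12, 80792520 to 80937934, minus strand) fell by 3.83 on the log2 scale (SE 0.28, adjusted p of 1.01e-40 by DESeq2), or 14.2-fold. Its paralogues did not share the fall. LIN7C, the dominant form at 10.9 TPM in GFP, had a log2 fold change of -0.07 with 95% limits of -0.15 and 0.00, and LIN7B had 0.51 with limits of -0.13 and 1.16. LIN7A thus supplied 9.61% ± 3.71 of the family's TPM in GFP against 0.661% ± 0.385 in T-MGM (SD, n = 3 each), against a family sum of 13.5 and 10.99 TPM. ACSS3, which overlaps LIN7A on the opposite strand, had under 10 normalized counts in both groups.

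SHANK1, a master scaffold of the postsynaptic density, went the opposite way. It had 73.1, 83.4 and 90.2 normalized counts in GFP against 355, 369 and 294 in T-MGM. The gene (ENSG00000161681.15; chromosome 19, 50659255 to 50719802, minus strand) rose by 2.04 on the log2 scale (SE 0.16, adjusted p of 5.43e-36 by DESeq2), or 4.11-fold. SHANK3, the more abundant paralogue in GFP, fell by 0.25 (SE 0.08, adjusted p of 0.0113 by DESeq2), and SHANK2 lay under 0.1 TPM on average. The SHANK1 share of the family's TPM was 18.1% ± 2.95 in GFP against 52.4% ± 3.54 in T-MGM (SD, n = 3 each). By library the T-MGM shares were 51.8%, 56.3% and 49.3%. The order of SHANK1 and SHANK3 in mean TPM turned from 0.41 and 1.79 to 1.60 and 1.40, which is stated for the means only. C19orf81 overlaps SHANK1 on the opposite strand and had 8.59 and 25.1 normalized counts.

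The DLG family held its sum, at 28.1 ± 0.72 TPM in GFP against 28.7 ± 2.20 in T-MGM (SD, n = 3 each), while its members moved apart. DLG1, the main form, had a log2 fold change of 0.00 with 95% limits of -0.08 and 0.08. DLG4 (PSD-95) rose by 0.69 (SE 0.08, adjusted p of 3.67e-19 by DESeq2), from 577, 605 and 544 to 888, 1001 and 908 normalized counts, while DLG5 fell by 0.38 (SE 0.05, adjusted p of 4.13e-14 by DESeq2). ACADVL overlaps DLG4 on the opposite strand at 3463 and 4633 normalized counts. DLG3 (SAP102) went from 50.4, 46.6 and 56.0 to 86.7, 122.9 and 104, a log2 fold change of 1.04 (SE 0.24, adjusted p of 6.92e-05 by DESeq2) that lies at the fold threshold. It fell under the threshold without GFP replicate 2 or T-MGM replicate 2, at 0.91 in the lower of these fits, and in TPM the DLG3 groups overlapped. Of the DLG-associated proteins, DLGAP4 was at 6922 to 7161 normalized counts in all 6 libraries. DLGAP5 is a mitotic spindle protein that shares the family name, and its change of -0.11 turned to 0.04 once GC content and length were corrected.

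**Figure D3:**
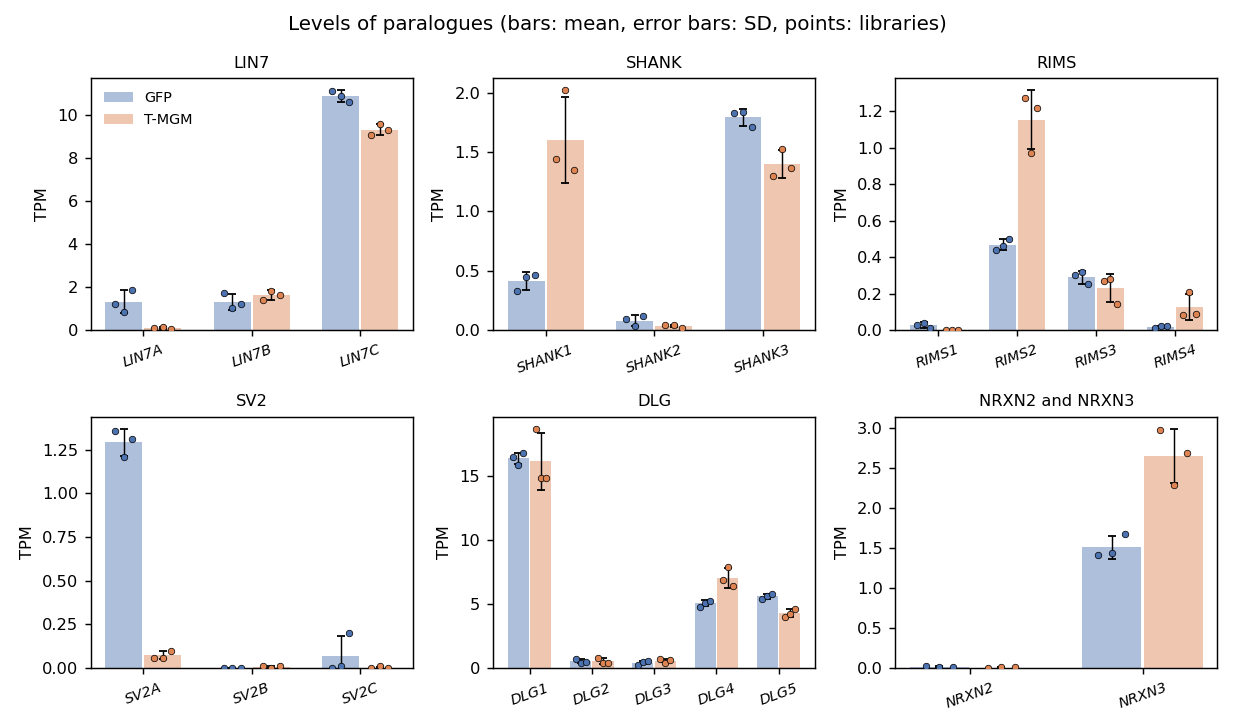
TPM of paralogues from 6 families; bars are group means (GFP blue, T-MGM orange), error bars are SD over 3 libraries and points are libraries, with a separate vertical scale for each family. LIN7C outweighs LIN7A in both groups, the mean of SHANK1 passes that of SHANK3 in T-MGM, and SV2A carries nearly all of its family.

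Adhesion organizers had 5 of 14 tested members past the adjusted p (35.7%, against 38.4% of all tested genes), 2 higher and 3 lower. IL1RAPL1, a receptor-like organizer that binds the phosphatase PTPRD across the synapse, had 543, 561 and 512 normalized counts in GFP against 45.6, 42.0 and 45.8 in T-MGM. Its libraries agreed closely within each group. The gene (ENSG00000169306.9; chromosome X, 28587446 to 29956718, plus strand) fell by 3.60 on the log2 scale (SE 0.15, adjusted p of 1.3e-119 by DESeq2), or 12.1-fold, from 5.16 ± 0.20 to 0.43 ± 0.08 TPM (SD, n = 3 each). SLITRK2, another ligand of receptors of this kind, fell by 0.78 (SE 0.08, adjusted p of 1.29e-23 by DESeq2), from 961, 930 and 994 to 506, 560 and 609. PTPRD itself rose by 0.80 (SE 0.07, adjusted p of 4.57e-27 by DESeq2), from 554 to 613 in GFP to 958 to 1064 in T-MGM, although it did not pass in the TPM values. IL1RAP, a further PTPRD ligand and IL1RAPL1 relative, was far more abundant (61.4 TPM in GFP) and changed by -0.11 (SE 0.02, adjusted p of 7.72e-07 by DESeq2), which was lost after GC and length correction (-0.016).

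Neurexins are the presynaptic receptors of neuroligins. NRXN3 rose by 0.85 (SE 0.10, adjusted p of 1.78e-16 by DESeq2), from 314, 307 and 335 to 596, 514 and 605 normalized counts. On the other side, the abundant neuroligins moved little: NLGN2 had a log2 fold change of 0.07 with 95% limits of -0.00 and 0.15, and NLGN1 had -0.10 with limits of -0.20 and 0.00. LRFN4, a DLG-binding adhesion protein, rose by 0.43 (SE 0.07, adjusted p of 1.57e-08 by DESeq2), while genes within 5 Mb of it had a median of 0.31.

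**Figure D4:**
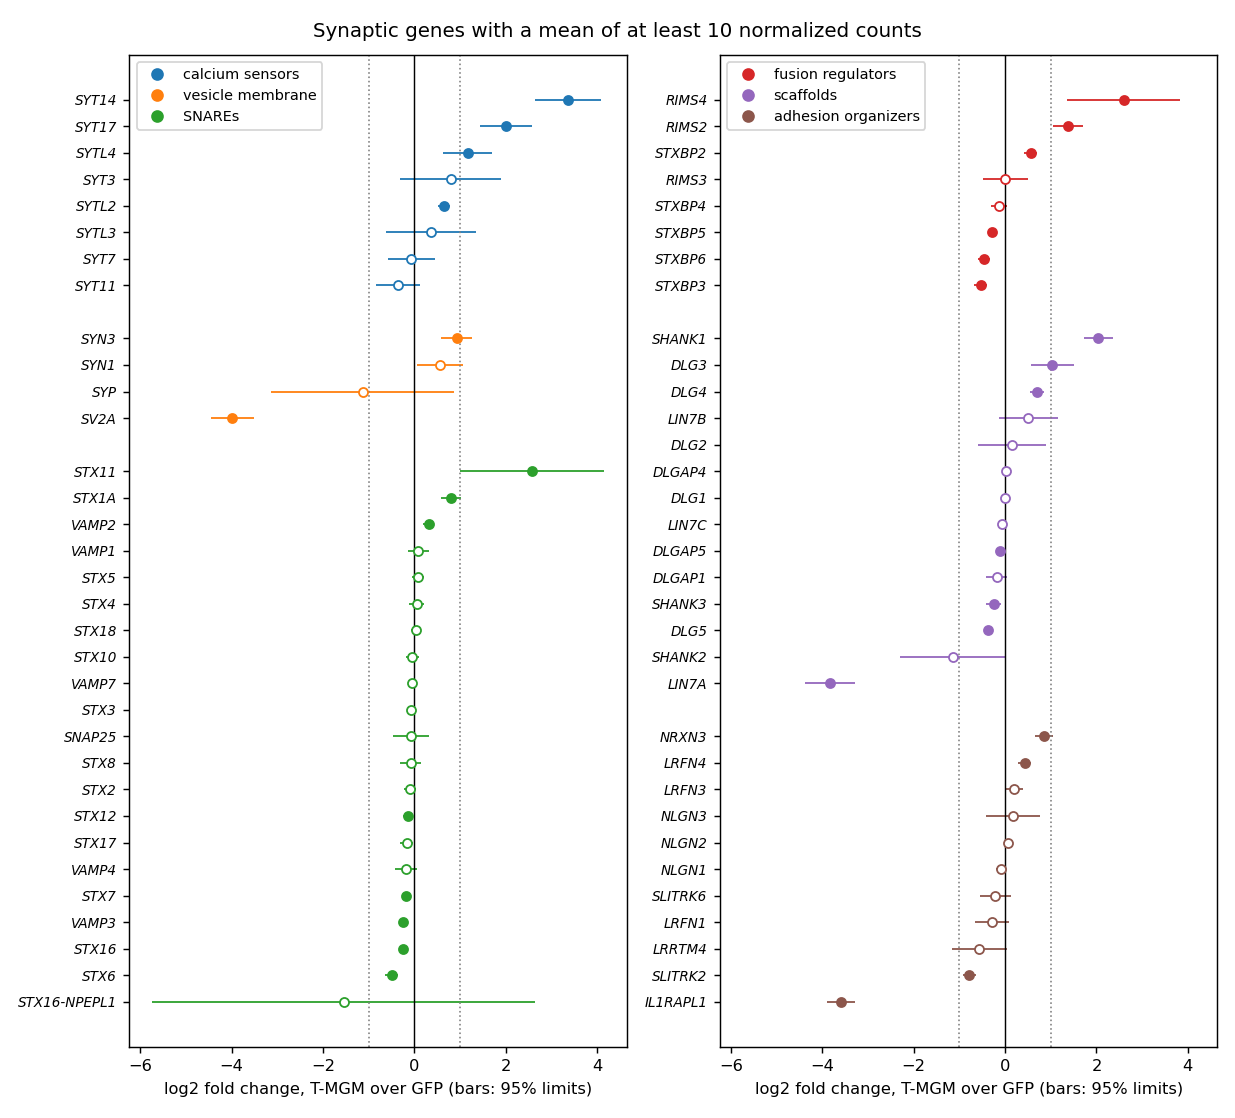
Log2 fold changes (T-MGM over GFP, with 95% limits) of 66 tested members with a mean of at least 10 normalized counts, coloured by role (synaptotagmin families under calcium sensors); filled points (31) passed the adjusted p, open points (35) did not, and dotted lines mark 2-fold changes. Most SNAREs lie near 0, with STX11 and the read-through gene STX16-NPEPL1 (open) beyond the dotted lines, and the remaining roles also hold members beyond them.

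Other genes of the same pathways were taken from lists written from general knowledge. Of 94 such genes 79 were tested; 19 passed the adjusted p upwards and 20 downwards, and 8 were called (10.1%, against 4.63% of all tested genes, with 19.2% passing in each direction). For priming and active zone genes the counts were 5 higher and 10 lower of 28 tested. PPFIA4 (liprin-α4) was called higher at 1.11 (SE 0.09, adjusted p of 4.29e-32 by DESeq2), but not after GC and length correction. SNAP23, the general partner of plasma membrane syntaxins, changed by -0.35 (SE 0.04) and RAB27A by -0.17 (SE 0.04), both past the threshold, although RAB27A no longer passed once GC content and length were corrected (-0.02). Of 16 tested vesicle membrane and recycling genes, 4 were higher and 3 lower. SYPL2, a synaptophysin relative, was called higher, from 1.20, 6.50 and 3.43 to 24.6, 22.4 and 22.9 normalized counts. SLC17A7, the glutamate transporter VGLUT1, was called lower, from 27.6, 30.3 and 37.7 to 10.9, 11.7 and 17.7, but did not pass without GFP replicate 3, T-MGM replicate 1 or T-MGM replicate 2.

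The LIN7 and scaffold partners gave 3 higher and 2 lower of 11 tested, and each change was under 2-fold. CASK, which binds LIN7, was at 1997 to 2043 normalized counts in GFP against 1829 to 1850 in T-MGM, a change of -0.13 (SE 0.04, adjusted p of 0.00489 by DESeq2) that was lost after GC and length correction (-0.09). APBA1, the other classical partner of LIN7 and CASK, lay at 122 to 175 and 118 to 169, with overlapping groups. The adhesion ligands and partners had 7 higher and 5 lower of 24 tested, and 5 were called (20.8%, background 4.63%). PTPRF (LAR), the sister receptor of PTPRD, rose by 1.15 (SE 0.05, adjusted p of 1.73e-118 by DESeq2), the calsyntenin CLSTN3 by 1.26 (SE 0.22, but not past the threshold in TPM) and the glypican GPC4, a ligand of LRRTM4, by 1.12 (SE 0.09). CBLN1, a cerebellin that links neurexins to glutamate receptors, fell by 1.64 (SE 0.18, adjusted p of 1.49e-18 by DESeq2), from 223, 240 and 194 to 58.4, 69.3 and 82.6 normalized counts. The latrophilin ADGRL3, named after its values were seen, was also called lower, with 15.6, 10.8 and 16.0 normalized counts in GFP against 0, 0 and 1.48 in T-MGM.

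By position, each called member was set beside the median of tested genes within 5 Mb. A few genes do not move such a median, so it does not show whether single neighbours changed. Of tested neighbours, 3 of 12 around IL1RAPL1, 3 of 23 around LIN7A and 7 of 89 around RIMS4 were called. The counts were 11 of 186 around SV2A, 6 of 79 around SYT14, 12 of 241 around SHANK1 and 0 of 29 around STX11. Of all tested genes 4.63% were called. Median log2 fold changes of tested genes within 5 Mb lay between -0.27 (SV2A) and 0.12 (RIMS1) for the 13 called members, against their own changes of over 1 in size. SV2A lay 3.99 down among neighbours at -0.27, SYT14 lay 3.36 up among neighbours at -0.15, and the figures for IL1RAPL1 and SHANK1 were 0.05 and 0.10.

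The cell type was checked with marker lists. All 8 melanocytic markers had more than 3 counts in some library, with summed levels of 1144 to 1168 TPM in GFP against 972 to 1009 in T-MGM, although TYRP1 was near 0 and DCT was called lower. In the DESeq2 fit on counts, 3 of the 8 passed the adjusted p as higher and 4 as lower. MITF was higher there by 0.08 (SE 0.02), while its mean TPM went from 138 to 133, so TPM and counts could differ in direction. Of 10 neuronal markers TUBB3 and GAD1 made up nearly all of 97.0 to 98.6 TPM in GFP against 97.1 to 97.7 in T-MGM. Both passed the adjusted p in opposite directions, TUBB3 at 0.26 (SE 0.02, adjusted p of 1.4e-24 by DESeq2) and GAD1 at -0.66 (SE 0.07, adjusted p of 3.24e-22 by DESeq2). STMN2 was at 0 in every library, and ELAVL4, GAP43, NEFL, NEFM and INA were at or near 0. Neuroendocrine markers summed to 1.93 to 2.38 and 1.22 to 1.71 TPM, with CHGA near 0. Of these 5 markers, 1 passed the adjusted p as higher and 1 as lower. Fibroblast markers summed to 3.84 to 4.83 and 5.34 to 6.69 TPM, mostly LUM; COL1A1 and PDGFRA were called higher, and COL1A2 and DCN were near 0. Immune markers summed to 10.98 to 12.8 and 11.8 to 15.6 TPM, mostly CD68, with PTPRC and CD3E near 0 and LYZ called lower. Keratinocyte and endothelial markers stayed at or under 0.34 TPM in every library. The part of these markers in the synaptic changes was not tested.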

How the data were processed

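RNA sequencing counts and TPM of 6 WM164 libraries were used, grouped by the sample titles. The authors trimmed reads with cutadapt 1.8.1, aligned them to GRCh38 with STAR 2.7.7a and, per the study's methods, used featureCounts on reads with a unique alignment. The deposited counts per gene are whole and not normalized. The submitters' processing notes also name RSEM 1.3.0; the deposited TPM values are scaled for length and depth and rounded to 2 decimals. The annotation release was not given in the sources used here. The labels name a library kit without strand information and the methods a stranded one, so counts of overlapping genes are uncertain.

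All genes were fitted with DESeq2 1.42.0 in R 4.3.3 (group as the only term, local dispersion trend, 2-sided Wald test, Benjamini-Hochberg adjustment over 19135 genes, independent filtering at 0.05), and members were read from that fit. Limits are 95%, from the SE. The floor was 3 counts per library; floors and counting intervals cover counting error only, since PCR copies of a molecule were not told apart. TPM was used for levels and families. Steps were tested on simulated data, with changes placed only in genes averaging at least 50 normalized counts. Recovery of changes at lower counts was not tested. Positions and overlaps are from GENCODE 44.

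Members, lists and tests were chosen with earlier results of these data known. Named members were those called with a mean of at least 10 normalized counts, the 3 of highest TPM in each of 6 roles, and those past the adjusted p with a mean of at least 100 and a log2 change of at least 0.5 in size; named pathway genes were those called with a mean of at least 10, and CASK, APBA1, PTPRD, IL1RAP, SNAP23 and RAB27A. Other members appear as paralogues or examples. A few members and a marker that entered the counts are not reported here by name. Alternatives were edgeR 4.0.16 (quasi-likelihood), TMM or total-count scaling, a minimum of 10 counts in 3 libraries, no independent filtering, a replicate block, a test against a log2 change of 1, each replicate left out, limma 3.58.1 on log2 of TPM plus 1 or 0.1 (with and without a minimum of 0.5 TPM in 3 libraries), and GC content and length offsets.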

Additional observations from a re-analysis of the deposited data

How the results depend on the processing

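Of 13 called members, 10 were called by edgeR, 13 with TMM factors, 13 with total-count scaling (12 shared), 10 with a minimum of 10 counts in 3 libraries, 13 without independent filtering and 12 with GC content and length offsets. In that order, 5.17%, 4.59%, 4.43%, 4.85%, 2.51% and 4.38% of all tested genes were called, against 4.63%. Leaving out 1 library gave 10 to 15 called and 30 to 34 past the adjusted p, against 34. Those fits called 4.26% to 4.58% of all tested genes. The replicate numbers do not pair the libraries (correlations of same-numbered deviations -0.0023, -0.040 and 0.043), and a replicate block called 13 members, 11 of them shared, with 32 past the adjusted p. The block added SYP and STX16-NPEPL1, and called 4.39% of all tested genes. The test against a log2 change of 1 called 5 members: SV2A, LIN7A, IL1RAPL1, SYT14 and SHANK1, and 5 also passed the adjusted p there. It called 0.98% of all tested genes. The TPM values gave 3 called members with a pseudocount of 1 (SV2A, LIN7A and IL1RAPL1), 6 with 0.1 and 3 without a filter. The same fits called 0.97%, 2.7% and 0.39% of all tested genes, also fewer than the 4.63% of the main fit. A pseudocount of 1 compresses changes of genes under 1 TPM. In the TPM fits the median of tested genes with a mean of at least 50 normalized counts stood at -0.13, -0.15 and -0.13. Of the members past the adjusted p with a filter 10 were higher and 21 lower, against 16 and 18. SV2A, LIN7A and IL1RAPL1 were called under all 17 alternatives, with log2 changes from -4.33 to -1.10, -4.37 to -1.08 and -3.65 to -2.11.

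Directions turned for 1 called member and for several with small changes. SYTL4 was at -0.22, -0.44 and -0.22 in the TPM fits (pseudocount 1, 0.1 and unfiltered), where it did not pass. In the same order, NLGN2 was at -0.026, -0.029 and -0.026, DLGAP4 at -0.196, -0.199 and -0.196, DLG1 at -0.027, -0.029 and -0.027 and APBA1 at 0.037, 0.058 and 0.037. After GC and length offsets VAMP7 was at 0.089, NLGN1 at 0.075, DLGAP5 at 0.038, NLGN2 at -0.066 and DLGAP4 at -0.108. DLGAP4 was at -0.030 with total counts. DLG1, at 0.0011, was at -0.052 with total counts, -0.00047 with the count minimum, -0.00020 under the block and -0.028 to 0.020 when 1 library was left out, and APBA1 was then at -0.17 to 0.10. The cause of these shifts was not tested. Depth limits the members at few counts: RIMS1 had no adjusted p under edgeR and in most fits without 1 library.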
